A study of Mus musculus with 24 samples.

Results

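Among the 1978 mature miRNAs counted in mouse male germ cells, 7 come from the hairpins of miR-139, miR-935, miR-504 and miR-328. They are miR-139-5p, miR-139-3p, miR-935, miR-504-5p, miR-504-3p, miR-328-3p and miR-328-5p. The hairpins were chosen by their counts, as miRNAs inside protein-coding genes that were lower in Ago413-/- than in Ago413+/+ cells, and the opposite arm of each hairpin was added where the table lists one. The comparison of Ago413-/- with Ago413+/+ therefore chose the members, and its values are given below as a description, with no test.

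Libraries of small RNA were made from 2 germ cell fractions, pachytene/diplotene spermatocytes and round spermatids, of Ago413+/+, Ago413+/- and Ago413-/- males, with 4 libraries for each of the 6 groups. All mice were C57BL/6J males, aged 10 to 15 weeks, and each cell suspension came from the testes of 2 to 5 mice, so that a library is a pool of animals. In the Ago413 line the whole of Ago1 and parts of Ago3 and Ago4 are deleted in every cell of the body, so that somatic cells of the testis carry the deletion too, while Ago2 is kept in all groups. The fractions were collected from a gravity gradient and are enriched, not pure. The line is kept by mating heterozygotes, and was made in embryonic stem cells of another strain with a Sox2-cre deleter before it was backcrossed.

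A miRNA is cut as a short duplex from a hairpin in a longer transcript, and one strand of the duplex, usually that of one preferred arm, is kept by an Argonaute protein. Bases 2 to 8 of the kept strand, the seed, pair with target mRNAs. Many miRNA hairpins lie in introns of protein-coding genes and can be transcribed together with the host gene.

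The mature sequences show where the hairpins differ and why their reads can be told apart. They are given from RefSeq (GRCm38.p6), 5′ to 3′, with the seed in capitals, for the 4 of the 7 members that the sequence table holds.
mmu-miR-139-5p: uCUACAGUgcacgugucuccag
mmu-miR-139-3p: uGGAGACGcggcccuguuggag
mmu-miR-935: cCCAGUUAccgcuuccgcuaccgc
mmu-miR-504-5p: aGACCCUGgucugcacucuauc
The 4 seeds were all different, and none was shared with another of the 1679 miRNAs in the count table that have a RefSeq sequence. The mature miRNAs in the RefSeq table differed from each of these 4 by at least 6 mismatches. For miR-504-3p, miR-328-3p and miR-328-5p no sequence is printed.

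The Mir139 hairpin is shown next because both of its arms were counted. The mature arms, miR-139-5p first and miR-139-3p second, are in capitals.
Mir139 hairpin: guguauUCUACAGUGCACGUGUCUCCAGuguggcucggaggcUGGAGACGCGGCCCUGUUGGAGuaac
Mir139 lies on the plus strand at chr7:101475376-101475443 (GRCm38), in an intron of Pde2a, which encodes a cyclic nucleotide phosphodiesterase. The annotation also places it within the locus Gm45837. Mir504 lies on the minus strand at chrX:59097658-59097736, in an intron of Fgf13, which encodes an intracellular homologue of the fibroblast growth factors.

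The other pair of hairpins departs from the usual intronic layout. The hairpin of miR-935 lies at chr7:3415066-3415156 on the plus strand, wholly inside a coding exon of Cacng8, which encodes an auxiliary subunit of AMPA receptors. Mir328 lies at chr8:105308364-105308460 within the span of Elmo3, a gene of the engulfment and cell motility family, but on the opposite strand and over exonic sequence. The label of a miRNA inside a host gene on the same strand thus holds for miR-139, miR-935 and miR-504 and not for miR-328. No other hairpin with a RefSeq mature miRNA lies within 50 kb of any of the 4.

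GC content was a property that the choice did not use. It was 68.2% for miR-139-3p, 66.7% for miR-935 and 54.5% for both miR-139-5p and miR-504-5p, against a median of 45.8% over the 373 miRNAs with a sequence among the 450 that reached 10 counts or more in 3 or more of the 24 libraries. Of those 373, 96.0% had a lower GC content than miR-935 and 70.2% had a lower one than miR-139-5p.

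Library totals ran from 182904 to 1072637 counts, and were lower in Ago413-/- spermatocytes (182904 to 369491) than in most Ago413+/+ spermatocytes (311610 to 721314). The smallest library, Ago413-/- spermatocytes replicate 2, stood apart. Of 450 miRNAs, 33 lay far above and 11 far below the other libraries of its group, 9.78% in all. Next came Ago413+/- spermatocytes replicate 4, with 23 far above and 5 far below (6.22%), and every other library was at 2.67% or less. Fold changes and ratios of the members that rest on Ago413-/- spermatocytes replicate 2 are given with and without it. Group values of Ago413+/- spermatocytes include their replicate 4. The 3 miRNAs taken to mark meiotic germ cells, of the miR-34 and miR-449 families, were all detected in every group, with summed levels from 18751 to 78881 CPM in Ago413-/- spermatocytes, 58090 to 112119 CPM in Ago413+/+ spermatocytes and 36488 to 186145 CPM in the other groups (a library's counts scaled to a common total of 1e6, with TMM factors). The gonadal miR-202 arms, 2 of 2 detected, summed to between 9034 and 15979 CPM in Ago413-/- round spermatids and to between 2500 and 8176 CPM in Ago413+/+ round spermatids. The endothelial miR-126a arms, also 2 of 2, were at 1951 to 5858 CPM against 511 to 1990 CPM. The 3 spermatogonial miRNAs (miR-21a-5p, miR-221-3p and miR-222-3p), all detected, summed to 8942 to 11516 CPM against 5311 to 8791 CPM. They did not all move the same way between Ago413-/- and Ago413+/+ round spermatids. The log2 fold change was 0.66 for miR-21a-5p and 0.85 for miR-221-3p but -0.42 for miR-222-3p. Blood miRNAs (103 to 4813 against 49.2 to 501 CPM) and peritubular ones (2031 to 3444 against 1060 to 8555 CPM) overlapped between these groups. In Ago413+/- round spermatids the sum of the spermatogonial miRNAs, at 9420 to 14214 CPM, was also above Ago413+/+ without overlap. The miR-202 arms (2800 to 8405 CPM) and miR-126a arms (858 to 1160 CPM) of Ago413+/- overlapped Ago413+/+. In spermatocytes the ranges of each of these lists overlapped between Ago413-/- and Ago413+/+. The part of any of these in the values below was not tested, and in these bulk samples fewer cells of a type and less RNA per cell cannot be told apart.

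The members differed widely in abundance. miR-328-3p ranked between 36 and 104 among all miRNAs in every library, miR-139-5p between 140 and 305, miR-935 between 199 and 482 and miR-504-5p between 283 and 657. Under the same filter, applied to the 12 libraries of a cell type, 3 of the 7 members could be tested in spermatocytes (miR-139-5p, miR-935 and miR-328-3p) and 4 in round spermatids, where miR-504-5p also passed. miR-504-5p in round spermatids and miR-935 in spermatocytes passed through Ago413+/+ and Ago413+/- libraries alone, since no Ago413-/- library held more than 4 and 2 of their counts. The remaining arms, miR-139-3p, miR-504-3p and miR-328-5p, fell short of it in both cell types.

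miR-935, from the coding exon of Cacng8, had very few counts in the homozygous mutant and overlapped the wild-type level in the heterozygote. In Ago413+/+ spermatocytes its 4 libraries held 58.2, 76.8, 78.4 and 57.2 CPM (67.6 ± 11.5, SD, n = 4). In Ago413+/- spermatocytes it stood at 53.4, 51.1, 129 and 115 CPM (87.2 ± 40.8). Ago413-/- spermatocytes gave 5.21, 0, 7.41 and 4.81 CPM (4.36 ± 3.12), which are counts of 2, 0, 2 and 1. All 4 libraries of Ago413-/- lay below all 8 of the other genotypes, although the 0 in replicate 2 allows up to 20 CPM, at 3 counts in that library.

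Round spermatids also had few miR-935 counts in the homozygous mutant. Ago413+/+ libraries held 116, 64.0, 94.8 and 72 CPM (86.7 ± 23.6), and Ago413+/- libraries 70.9, 45.2, 68.4 and 71.7 CPM (64.1 ± 12.7). Ago413-/- libraries held 4.99, 16.7, 19.4 and 8.63 CPM (12.4 ± 6.74). Again the 4 Ago413-/- libraries did not overlap those of either other genotype, while Ago413+/- and Ago413+/+ overlapped. The log2 fold change of Ago413-/- over Ago413+/+ was -3.75 (SE 0.57) in spermatocytes and -2.61 (SE 0.39) in round spermatids, and over Ago413+/- it was -4.13 (SE 0.57) and -2.26 (SE 0.39). Without replicate 2 of the Ago413-/- spermatocytes the spermatocyte values were -3.51 (SE 0.54) over Ago413+/+ and -3.92 (SE 0.54) over Ago413+/-. By sums over libraries, miR-935 had 5 counts of 1077976 in Ago413-/- spermatocytes and 176 of 2304539 in Ago413+/+, or 16.5-fold lower with a counting interval from 6.92 to 51.3 (exact, 95%, counting error only), and 13.7-fold lower (5.75 to 42.6) without replicate 2.

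**Figure D1:**
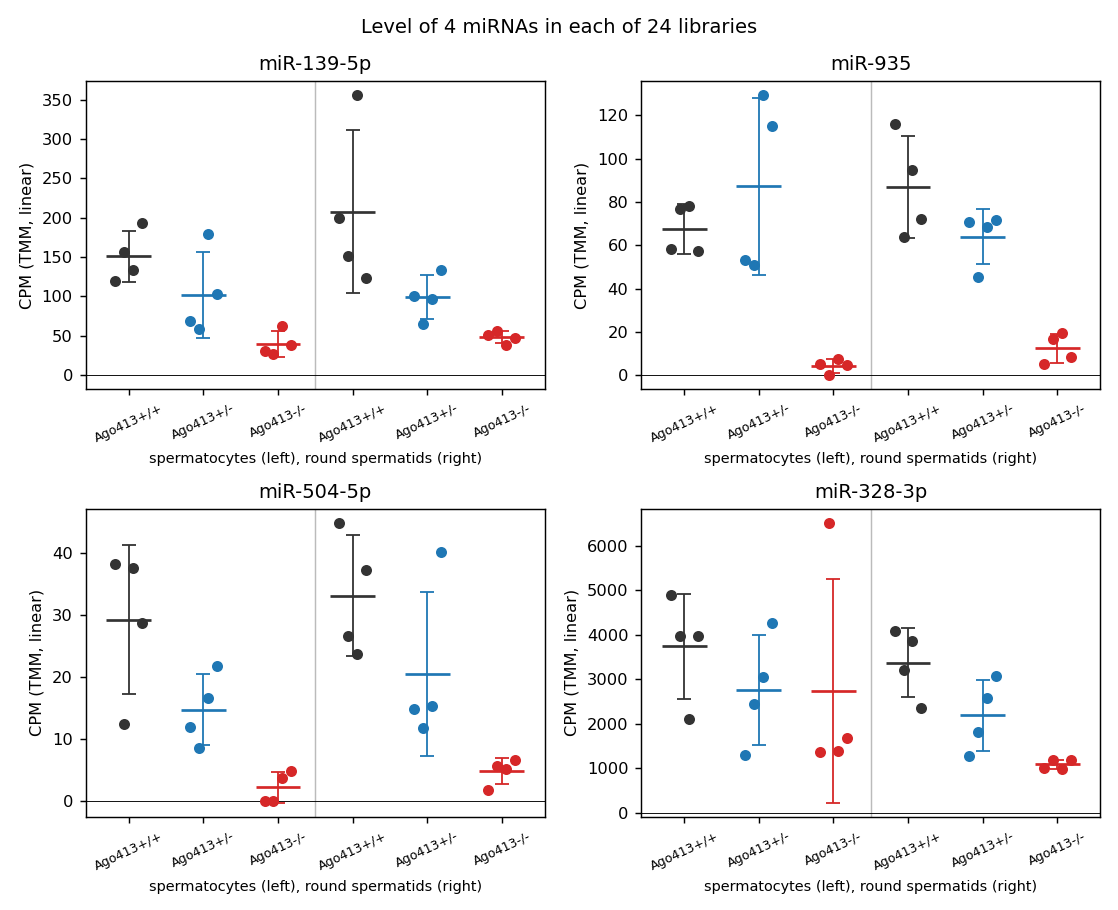
Level in CPM (linear axis) of miR-139-5p, miR-935, miR-504-5p and miR-328-3p in each of the 24 libraries, with spermatocytes left and round spermatids right of the grey line. Points are libraries, horizontal bars group means and whiskers SD (n = 4); miR-935 stays at or below 19.4 CPM in all 8 Ago413-/- libraries, and 1 Ago413-/- spermatocyte library has the highest miR-328-3p level of all, 6519 CPM.

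miR-139-5p, from the intron of Pde2a, was lowest in Ago413-/- in both cell types, and its Ago413+/- mean lay between those of the other genotypes. The Ago413+/+ spermatocytes held 120, 156, 133 and 194 CPM (151 ± 32.4). The Ago413+/- spermatocytes held 68.2, 58.2, 179 and 103 CPM (102 ± 54.7), and the Ago413-/- spermatocytes 31.3, 26.7, 63.0 and 38.5 CPM (39.9 ± 16.2). Ago413-/- lay wholly below Ago413+/+, but its highest library, replicate 3, overlapped Ago413+/-.

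Round spermatids gave a similar picture for miR-139-5p. Ago413+/+ libraries held 200, 151, 356 and 124 CPM (207 ± 104), Ago413+/- libraries 101, 65.2, 96.2 and 133 CPM (98.9 ± 27.9), and Ago413-/- libraries 51.6, 55.7, 38.7 and 47.4 CPM (48.4 ± 7.26). Here Ago413-/- was below both other genotypes without overlap, and Ago413+/- overlapped Ago413+/+ through its replicate 4. The log2 fold change of Ago413-/- over Ago413+/+ was -1.92 (SE 0.42) in spermatocytes and -1.91 (SE 0.32) in round spermatids. Over Ago413+/- it was -1.38 (SE 0.42) and -0.97 (SE 0.32). Without replicate 2 of the Ago413-/- spermatocytes the spermatocyte values were -1.79 (SE 0.44) and -1.30 (SE 0.44). The sums over libraries were 4.12-fold lower in Ago413-/- than in Ago413+/+ spermatocytes (counting interval 2.98 to 5.84; without replicate 2, 3.79-fold, 2.70 to 5.47) and 4.09-fold lower in round spermatids (3.30 to 5.11).

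The opposite arm, miR-139-3p, had 77 counts in all 24 libraries together. Its counts in spermatocytes were 12, 12, 1 and 4 in Ago413+/+, 0, 0, 3 and 5 in Ago413+/-, and 1, 1, 1 and 0 in Ago413-/-. In round spermatids they were 1, 8, 5 and 5 in Ago413+/+, 2, 0, 7 and 7 in Ago413+/-, and 2, 0, 0 and 0 in Ago413-/-. The 2 counts of Ago413-/- round spermatids against 19 in Ago413+/+ gave a ratio of 0.118 of the library totals (counting interval 0.0133 to 0.488).

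The 3p arm made up 5.28% of the counts of both miR-139 arms over all libraries (77 of 1457, exact Clopper-Pearson 95% interval 4.19 to 6.56%). By group the share ran from 1.90% (2 of 105, 0.23 to 6.71%) in Ago413-/- round spermatids to 7.44% (29 of 390, 5.04 to 10.5%) in Ago413+/+ spermatocytes. The 5p arm was therefore the abundant one in every group. The arms were compared within Ago413+/-, whose libraries had no part in the choice of the members. There the log2 ratio of the 3p to the 5p arm was -4.23 in round spermatids and -4.75 in spermatocytes on average. The difference of 0.52 had no steady sign when 1 library was left out (-0.11 to 1.23). An exact two-sided permutation test did not separate the cell types (p = 0.657, adjusted p = 0.886 over 3 hairpins, smallest possible p 0.0286). In Ago413+/- the minor arm of miR-328 had 0 counts and that of miR-504 had 1, so the ratios of these hairpins measured no arm share.

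**Figure D2:**
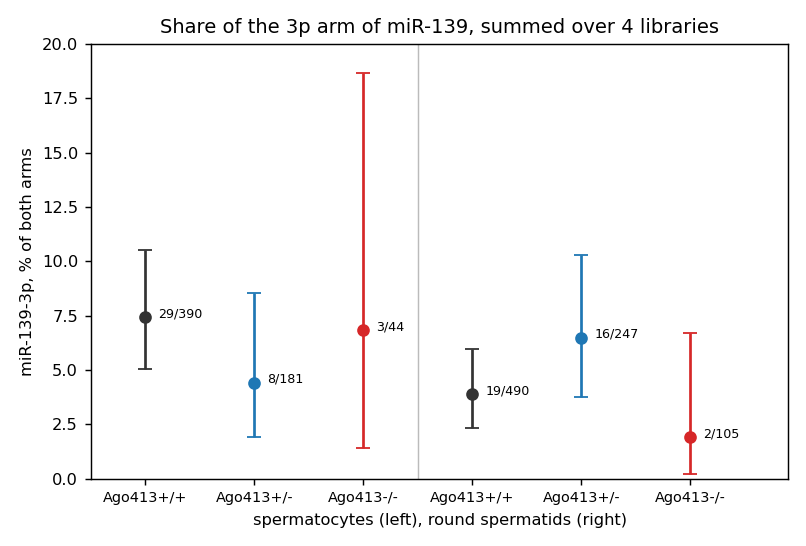
Share of miR-139-3p among the counts of both miR-139 arms, in percent (linear axis), summed over the 4 libraries of each group. Whiskers are exact 95% Clopper-Pearson intervals and the fractions give counts of the 3p arm over both arms; the interval reaches 18.7% in Ago413-/- spermatocytes, where both arms together had 44 counts.

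miR-504-5p, the X-linked member from the intron of Fgf13 and a known repressor of Trp53, the gene of p53, had the fewest counts of the abundant arms. In Ago413+/+ round spermatids it stood at 44.8, 26.5, 23.7 and 37.2 CPM (33.1 ± 9.76). Ago413+/- round spermatids held 14.8, 11.7, 15.2 and 40.2 CPM (20.5 ± 13.2), and Ago413-/- round spermatids 1.66, 5.57, 5.17 and 6.47 CPM (4.72 ± 2.11). The Ago413-/- libraries lay below all 8 others, and 1 Ago413+/- library, replicate 4, lay among the Ago413+/+ libraries.

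In round spermatids the log2 fold change of miR-504-5p was -2.67 (SE 0.53) for Ago413-/- over Ago413+/+ and -2.07 (SE 0.55) over Ago413+/-. In spermatocytes the counts were 23, 9, 32 and 9 in Ago413+/+, 4, 6, 7 and 7 in Ago413+/-, and 0, 0, 1 and 1 in Ago413-/-. The sums, 2 counts in Ago413-/- and 73 in Ago413+/+, gave a ratio of 0.0586 of the library totals (counting interval 0.00696 to 0.219), or 0.0705 (0.00838 to 0.264) without replicate 2, and 24 counts in Ago413+/- gave 0.455 of the Ago413+/+ share (0.274 to 0.730). These intervals cover counting error and not the spread between libraries. The opposite arm, miR-504-3p, had 2 counts in all, 1 in Ago413+/+ spermatocytes replicate 2 and 1 in Ago413+/- spermatocytes replicate 1.

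miR-328-3p, antisense to Elmo3, was the most abundant member, and its Ago413-/- libraries lay apart from the other genotypes in round spermatids but overlapped them in spermatocytes. In Ago413+/+ round spermatids it stood at 4089, 3210, 3862 and 2352 CPM (3378 ± 779), in Ago413+/- at 1283, 1823, 2583 and 3067 CPM (2189 ± 792) and in Ago413-/- at 1005, 1179, 979 and 1182 CPM (1086 ± 109). The 4 Ago413-/- round spermatid libraries lay close together and below all 8 others. The log2 fold change of Ago413-/- was -1.49 (SE 0.26) over Ago413+/+ and -0.93 (SE 0.26) over Ago413+/-.

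In spermatocytes the miR-328-3p levels were 4903, 3985, 2111 and 3964 CPM in Ago413+/+ (3741 ± 1171), 1294, 2448, 3047 and 4256 CPM in Ago413+/- (2761 ± 1234), and 1370, 6519, 1398 and 1690 CPM in Ago413-/- (2744 ± 2521). The genotypes overlapped, and the Ago413-/- library at 6519 CPM was replicate 2, the library that stood apart. In that library miR-139-5p was the lowest of its group, and miR-935 and miR-504-5p had 0 counts. The log2 fold change of miR-328-3p over Ago413+/+ was -0.44 (SE 0.52) with replicate 2 and -1.35 (SE 0.38) without it, and over Ago413+/- it was -0.03 (SE 0.52) and -0.98 (SE 0.38). The other 3 Ago413-/- libraries lay below the 4 Ago413+/+ libraries and overlapped Ago413+/-. The opposite arm, miR-328-5p, had 0 counts in every library, which allows up to 0.0116% of the 31943 counts of both arms (exact 95% interval).

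Among the tested members, every Ago413-/- library was below every Ago413+/+ library for 2 of 3 in spermatocytes and 4 of 4 in round spermatids, where 13.1% and 12.4% of all tested miRNAs met that description. Without replicate 2 it was 3 of 3 in spermatocytes, beside 16.6% of all miRNAs. The choice of the members used this contrast, so nothing is read from these counts. Ago413-/- was wholly below Ago413+/- for 2 of 3 members in spermatocytes (miR-935 and miR-139-5p) and 4 of 4 in round spermatids, where 7.43% and 12.9% of all miRNAs were so, and without replicate 2 the spermatocyte count was the same beside 8.93%. The members were chosen for low Ago413-/- values, so nothing is read from these counts either. The counts use the scaling of the 12 libraries of a cell type, and for miR-139-5p in spermatocytes the separation from Ago413+/- is lost in the CPM values above, scaled over 24 libraries. Ago413+/- was wholly below Ago413+/+ for none of the tested members, where 1.24% of all miRNAs were so in spermatocytes and 2.35% in round spermatids.

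**Figure D3:**
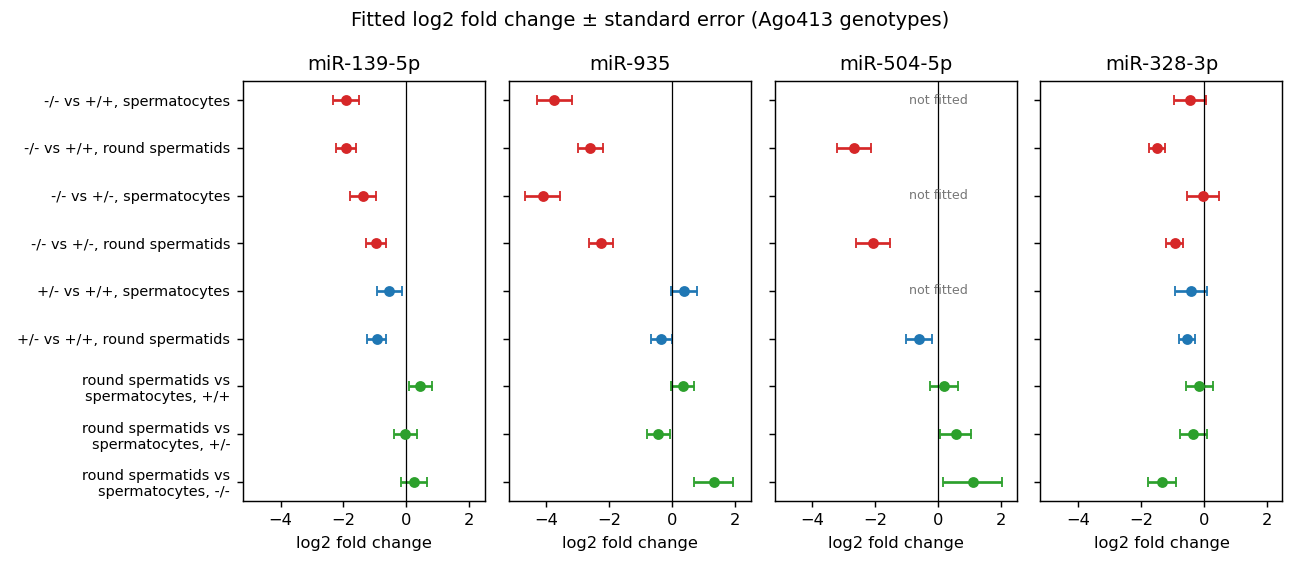
Fitted log2 fold changes (linear axis) of miR-139-5p, miR-935, miR-504-5p and miR-328-3p in 9 comparisons, with standard errors from the edgeR quasi-likelihood fit as whiskers. Red marks comparisons of Ago413-/- with another genotype, blue Ago413+/- with Ago413+/+ and green round spermatids with spermatocytes; miR-935 shows the largest decreases, -4.13 and -3.75 in spermatocytes, and "not fitted" marks miR-504-5p in spermatocytes, which had too few counts.

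To ask whether loss of 1 copy of the locus moved the members, Ago413+/- was compared with Ago413+/+. No member passed the threshold of an adjusted p under 0.05 (edgeR quasi-likelihood test, Benjamini-Hochberg over all tested miRNAs) with a log2 change of 1 or more in either direction, and neither did any other miRNA (0% of 404 in spermatocytes and 0% of 426 in round spermatids). At an unadjusted p under 0.05, 13 miRNAs passed in spermatocytes and 68 in round spermatids, of which 0 and 2 were members, and DESeq2 called 0 and 6 miRNAs, no member among them. The Ago413+/+ libraries took part in the choice of the members, so that this comparison is not independent of it.

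The heterozygote values differed between the members. For miR-139-5p the log2 fold change was -0.94 (SE 0.31, adjusted p = 0.192) in round spermatids and -0.54 (SE 0.39, adjusted p = 1.00) in spermatocytes. For miR-328-3p it was -0.55 (SE 0.26, adjusted p = 0.310) in round spermatids, where miR-504-5p gave -0.60 (SE 0.42, adjusted p = 0.491). miR-935 gave 0.38 (SE 0.40) in spermatocytes and -0.34 (SE 0.33, adjusted p = 0.642) in round spermatids, so that its wild-type and heterozygote levels lay within about 1 SE of each other in both cell types. Whether these values differed between the cell types was tested as an interaction, and no member passed (all adjusted p = 0.994).

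The cell types were then compared within each genotype, to ask whether the members change between spermatocytes and round spermatids. Within Ago413+/- the log2 fold change of round spermatids over spermatocytes was -0.04 (SE 0.36) for miR-139-5p, -0.44 (SE 0.37) for miR-935, 0.56 (SE 0.50) for miR-504-5p and -0.33 (SE 0.42) for miR-328-3p, all with an adjusted p of 0.988. Within Ago413+/+ the values were 0.45 (SE 0.35), 0.34 (SE 0.36), 0.19 (SE 0.44) and -0.15 (SE 0.42) in the same order, all with an adjusted p of 0.996. In both genotypes 0% of the 450 miRNAs were called (10 in Ago413+/+ and 15 in Ago413+/- at an unadjusted p under 0.05, and 0 by DESeq2). The Ago413+/+ libraries, and the Ago413-/- libraries compared next, took part in the choice of the members, though in another contrast. The tests within Ago413+/+ and within Ago413-/- are therefore not independent of that choice.

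Within Ago413-/- 4.89% of miRNAs were called between the cell types, and 0 of the 4 tested members, but without replicate 2 of the spermatocytes 0.222%, 1 miRNA of 450, was called, and again 0 members. Of these members, miR-935 and miR-504-5p entered the fit through Ago413+/+ and Ago413+/- libraries. In the Ago413-/- libraries alone both fell short of the filter, so nothing is read from their adjusted p-values here. miR-328-3p was lower in round spermatids by a log2 fold change of -1.33 (SE 0.43, adjusted p = 0.0733), and without replicate 2 of the spermatocytes by -0.31 (SE 0.32, adjusted p = 0.593). DESeq2 called it (-1.39, adjusted p = 0.0191), as did 3 other settings, with adjusted p from 0.0168 to 0.593 over all the settings tried. miR-935 gave 1.32 (SE 0.62, adjusted p = 0.165; without replicate 2, 1.22, SE 0.60), with 5 counts in spermatocytes and 28 in round spermatids. For miR-139-5p the value was 0.25 (SE 0.41, adjusted p = 0.741) and for miR-504-5p 1.10 (SE 0.95, adjusted p = 0.451), or 0.29 (SE 0.41) and 1.03 (SE 0.95) without replicate 2. miR-504-5p had 2 counts in Ago413-/- spermatocytes and 10 in Ago413-/- round spermatids.

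To set the members beside others of their kind, miRNAs whose hairpins lie inside a protein-coding gene on the same strand were listed. Only miRNAs with a RefSeq sequence could enter the list, 373 of the 450 kept over 24 libraries. miR-532-5p, for example, had no match and was left out, although its opposite arm miR-532-3p was listed. Besides the members, 148 such miRNAs passed the filter over 24 libraries. Between Ago413-/- and Ago413+/+ spermatocytes 0 of 125 tested rose and 2 fell (1.60%, against 4.46% of all miRNAs), with a median log2 fold change of -0.02 beside -0.05 over all miRNAs. Those that fell were miR-30e-3p from Nfyc (-1.25, SE 0.30, adjusted p = 0.0225) and miR-532-3p from Clcn5 (-2.65, SE 0.66, adjusted p = 0.0281). Without replicate 2 of the Ago413-/- spermatocytes 1 of 125 rose and 3 fell (3.20%, against 4.71% of all miRNAs), with miR-28a-5p the one that rose and miR-130b-5p added to those that fell. Nfyc encodes a subunit of the transcription factor NF-Y, and Clcn5 a chloride transporter.

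In round spermatids 5 of 138 rose and 11 fell (11.6%, against 16.2% of all miRNAs), with a median of 0.17 beside 0.13. miR-30e-3p (-1.29, SE 0.24, adjusted p = 0.00179) and miR-532-3p (-2.13, SE 0.44, adjusted p = 0.00394) fell there as well. miR-146b-3p from Mfsd13a had the largest decrease of those called (-3.74, SE 0.63, adjusted p = 0.00100), and both miR-25-5p (-1.15, SE 0.30) and miR-93-3p (-1.22, SE 0.38) from Mcm7, which encodes a subunit of the replicative helicase, were among those that fell. Those that rose included miR-126a-3p from Egfl7 (1.63, SE 0.42), the endothelial miRNA whose summed arms are given above, and miR-26b-5p from Ctdsp1 (1.22, SE 0.21). With library totals in place of TMM the list split into 3 that rose and 12 that fell in round spermatids, and 0 and 6 in spermatocytes, as the median of all miRNAs moved to -0.09 and -0.24. The list and the members share the libraries and the contrast. The members, chosen because they fell, are left out of the list but counted among all miRNAs. This lowers the share of the list that fell, so nothing is read from its place beside all miRNAs. With the members on the same strand put back, 0 of 127 rose and 4 fell in spermatocytes. In round spermatids 5 of 141 then rose and 14 fell.

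**Figure D4:**
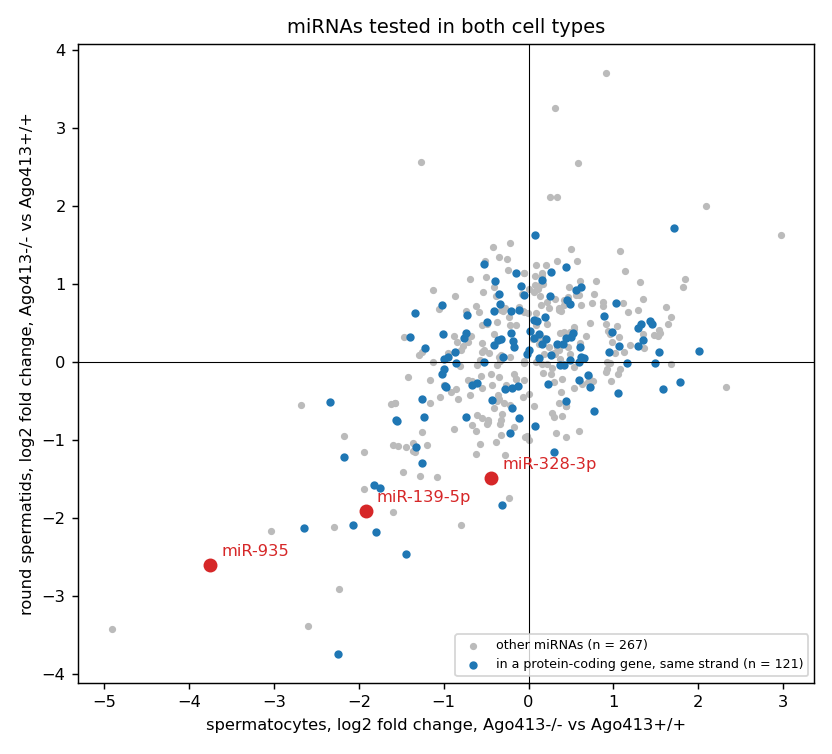
Log2 fold change of Ago413-/- over Ago413+/+ in spermatocytes (x axis) and in round spermatids (y axis) for miRNAs tested in both cell types. Red points are miR-935, miR-139-5p and miR-328-3p. Blue points are the 121 other miRNAs with a RefSeq sequence inside a protein-coding gene on the same strand. Grey points are the 267 remaining miRNAs, among them those without a RefSeq sequence, whose hosts were not looked up. miR-935 and miR-139-5p lie in the lower left, and the blue points spread around 0.

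The levels of the members were correlated across the 24 libraries, as a description over libraries that share their genotype groups and depths. These include the Ago413-/- and Ago413+/+ libraries that chose the members. High values among the members follow in part from that choice, and nothing is read from them. Spearman's rho was 0.823 to 0.871 among miR-139-5p, miR-935 and miR-504-5p and 0.481 to 0.555 between each of them and miR-328-3p. Without replicate 2 of the Ago413-/- spermatocytes these ranges were 0.766 to 0.837 and 0.682 to 0.769. The miRNA most like miR-139-5p among the 450 was miR-935 (Spearman's rho 0.871 over 24 libraries), followed by miR-504-5p (0.858) and miR-30e-3p (0.857). miR-935 was most like miR-30c-2-3p (0.877), miR-139-5p (0.871) and miR-30e-3p (0.842). For miR-504-5p the closest were miR-409-5p (0.899), miR-532-5p (0.882) and miR-139-5p (0.858), and for miR-328-3p they were miR-674-3p (0.856), miR-409-3p (0.841) and miR-676-3p (0.840), none of them a member. The nearest miRNAs depended on that library: without it the first for miR-139-5p was miR-409-3p (0.842) and the first for miR-328-3p was miR-409-3p (0.905), while miR-30c-2-3p (0.864) and miR-409-5p (0.872) stayed first for miR-935 and miR-504-5p. After the group means were taken out, rho ran from 0.03 between miR-935 and miR-328-3p to 0.56 between miR-139-5p and miR-935 over the 6 pairs.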

How the data were processed

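After trimming, the authors quantified reads against miRBase mature miRNAs with miRDeep2, and the deposited table holds their raw counts, not normalized, for 1978 miRNAs in 24 libraries. The members and lists were chosen with earlier results of these data known. The tests used edgeR 4.0.16 in R 4.3.3. A miRNA was kept if it reached 10 counts or more in 3 or more libraries of a fit (404 in spermatocytes, 426 in round spermatids, 450 over 24 libraries). Counts were scaled by TMM and tested by quasi-likelihood without covariates. Genotypes were compared among the 12 libraries of a cell type, and cell types among all 24. A miRNA was called at a Benjamini-Hochberg adjusted p under 0.05 with a log2 change of 1 or more in either direction. The SE is the log2 fold change over the signed root of F. CPM uses TMM over 24 libraries. Named are the members, their 3 nearest miRNAs by Spearman's rho (prior count 2), and miRNAs inside protein-coding genes; examples among the last were picked after their values were seen. Arm ratios use a pseudocount of 0.5. Positions come from RefSeq and GENCODE (GRCm38). Replicates are labelled as such, with no statement that pools differ in animals, so p-values measure the spread between these libraries. Counting intervals cover counting error only, as reads carry no molecular identifiers. Scripts were tested on simulated data. DESeq2 1.42.0 was an alternative, and leaving out Ago413-/- spermatocytes replicate 2 was extended to further values after seeing the data.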

Additional observations from a re-analysis of the deposited data

Results flagged for a closer look

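For each member with enough counts in a group of 4 libraries, a library far from its group was sought (Dixon's ratio above the 95% critical value). Of 26 such sets of a member and a group, 3 held one, where chance alone would flag about 1.30. The sets share libraries and are not independent. miR-328-3p stood at 6519 CPM in Ago413-/- spermatocytes replicate 2, with the other 3 libraries between 1370 and 1690 CPM. miR-504-5p stood at 40.2 CPM in Ago413+/- round spermatids replicate 4, with the others between 11.7 and 15.2 CPM. miR-935 stood at 45.2 CPM in Ago413+/- round spermatids replicate 2, with the others between 68.4 and 71.7 CPM.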

How the results depend on the processing

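The count of members called between the cell types within Ago413-/- was 0 as reported, and 1, miR-328-3p, with DESeq2, with no filter on low counts and with at least 10 counts in every library. Leaving out 1 library gave 0 to 1, the 1 without Ago413-/- spermatocytes replicate 1 (adjusted p = 0.0282). The other 4 counts of members called stayed at 0 under every alternative that gave a value, including RLE scaling, library totals, the libraries compared alone, a term for the numbering of the libraries, GC content and any fold change. The GC offset gave no value for miR-328-3p.

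No value that changed sign had been called. With 1 library left out, the log2 fold change of round spermatids over spermatocytes ran from -0.39 to 0.013 for miR-328-3p and from -0.12 to 0.35 for miR-504-5p in Ago413+/+, and from -0.23 to 0.38 for miR-139-5p and from -0.019 to 0.76 for miR-504-5p in Ago413+/-. In Ago413+/- the difference of the arm ratio of round spermatids and spermatocytes, 0.52 for miR-139, was -0.073 with a pseudocount of 5. It ran from -0.11 to 1.23 with 1 library left out, and that of miR-328 ran from -0.35 to 0.32. As miR-328-5p had 0 counts, the miR-328 ratio only follows the miR-328-3p counts and the pseudocount, and it measures no arm share. The cause of these changes of sign was not tested. Without Ago413+/+ round spermatids replicate 4, miR-328-3p in Ago413-/- over Ago413+/+ round spermatids moved from -1.49 to -1.76. Without Ago413-/- spermatocytes replicate 2, a setting added after seeing the data for comparisons with Ago413+/-, miR-328-3p moved from -0.03 to -0.98.

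The labels do not say what a replicate number shares. The fractions of 11 of the 12 same-numbered pairs have adjacent library numbers, yet 6 of the 12 correlated above 0.1 (3 of 4 in Ago413+/+) and 4 were closest to their own number, and of 24 pairs of genotypes 7 correlated above 0.1. The numbers were therefore not used as pairs, but shared animals within a pair were not settled here. With the replicate block, miR-139-5p between the cell types in Ago413+/- was 0.046, and no count of members called changed. The shallow Ago413-/- spermatocyte libraries limit miR-935 and miR-504-5p there: 3 counts are 7.81 to 20 CPM.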
